A study of Homo sapiens with 79 samples.

Results

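The genes described here are 59 genes of the cell cycle, of 24414 genes counted in single cells of human retinal organoids. They were taken from textbook knowledge of the cycle and not from these counts, but with earlier results of these data known. The mitosis members overlap the study's own list of mitotic markers, which came from clusters of these cells. There were 29 genes of DNA replication and entry into S phase (the replication members) and 30 genes of mitosis (the mitosis members). All 59 were present in the table, and 27 replication members and 29 mitosis members reached a mean of at least 5 counts scaled to the total reads (CPM) over the chips. CDC45, UHRF1 and CENPA did not.

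The cells came from the H9 human embryonic stem cell line carrying a CRX-GFP reporter, differentiated as retinal organoids and dissociated at day 60, day 90 or day 200. All groups shared the line and its medium, with Y27632 at the start and foetal calf serum, T3, taurine and retinoic acid later, and none was left untreated. Cells were captured on microfluidic chips, with 578 cells in 19 chip columns at day 60, 661 cells in 20 columns at day 90, and 356 and 381 cells in 20 columns each on the 2 day 200 chips, called a and b. Day 60 and day 90 had 1 chip each, so time and chip cannot be told apart there, and no test was made between time points. Chips also differed in handling. By the paper, the day 90 chip was run first, with more spike-in control RNA and a looser limit on spike-in reads. Day 60 cells were kept at a lower minimum of reads. The fewest gene reads in a cell were 88192 at day 60, 7549 at day 90, and 127130 and 125646 on chips a and b.

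Cells that divide copy their DNA in S phase and separate the copies in mitosis. Replication starts when the MCM helicase is loaded on origins by CDC6 and is then driven by the clamp PCNA, polymerases and a supply of nucleotides and histones. Mitosis is driven by CDK1 with B cyclins, and is carried out by the centromere, the kinetochore, kinesins and the Aurora kinases. In the developing retina, progenitor cells divide and their neuronal daughters leave the cycle. Genes of S phase are known to be switched by E2F factors, and genes of mitosis by complexes that bind CHR and CCAAT elements.

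Median depth was 160343 to 251929 reads per cell by chip, and column totals ran from 3414268 to 7999822 reads. At an equal depth of 50000 reads, the median cell of chip a had 1661 genes detected, against 2769 to 3125 on the other 3 chips. The retinal genes PAX6, SIX3 and RAX were present on every chip, with PAX6 at 389 to 467 CPM.

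The promoters were read first, since the lists are known for different elements. The RefSeq table of promoters (GRCh38.p14, 250 bases before to 50 bases after the start, the entry listed first for each gene) held 26 of the 29 replication members and 25 of the 30 mitosis members. Promoters with no entry were those of MCM4, MCM5, CCNE2, UBE2C, AURKA, BIRC5, TTK and TPX2. The letters searched on both strands were TTTCCCGC, TTTCGCGC, TTTGCCGC or TTTGGCGC for E2F, TTTGAA for CHR, and CCAAT. E2F letters were found in 14 of 26 replication promoters (53.8%), in 3 of 25 mitosis promoters (12.0%) and in 3.33% of all 27305 promoters. CHR letters were found in 1 of 26 replication promoters (3.85%), in 20 of 25 mitosis promoters (80.0%) and in 15.4% of all promoters. CCAAT was common in both lists, with 18 of 26 (69.2%) and 20 of 25 (80.0%), against 35.7% of all promoters. CHR and CCAAT letters together were found in 17 of 25 mitosis promoters (68%), in 1 of 26 replication promoters and in 6.08% of all promoters. These are matches of letters and no binding was measured.

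**Figure D1:**
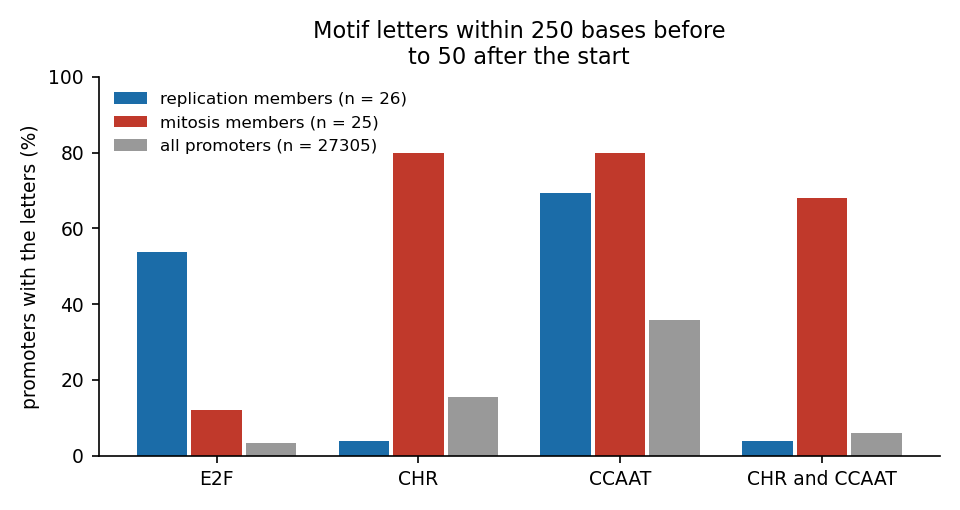
Share of promoters (y axis, percent) with E2F, CHR or CCAAT letters, or with both CHR and CCAAT, in the replication members (n = 26), the mitosis members (n = 25) and all 27305 promoters. The E2F bar was highest for the replication members (53.8%) and the CHR bar for the mitosis members (80.0%).

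The 3 replication members of highest level whose E2F letters lie before the start, in a stretch with no annotated exon, are shown with 10 bases on each side and the motif in capitals. They lie at chrX:24693771-24693798 (plus strand), chr20:5126664-5126691 (minus strand) and chr6:52284899-52284926 (minus strand). POLA1 is a subunit of the polymerase that starts new strands, PCNA is the sliding clamp, and MCM3 is a subunit of the helicase.
POLA1: tcatcacaggGCGCCAAAcgcgcgtccg
PCNA: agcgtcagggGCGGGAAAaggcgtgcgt
MCM3: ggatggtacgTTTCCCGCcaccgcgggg

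The 3 mitosis members of highest level with CHR and CCAAT letters before the start, chosen in the same way, are shown with the CHR and CCAAT motifs in capitals. The CCAAT motif appears as ATTGG where it lies on the other strand, and TTTGAA as TTCAAA. They lie at chr17:40417935-40418146 (minus strand), chr10:128126433-128126531 (minus strand) and chr10:60778160-60778195 (plus strand). TOP2A untangles DNA before chromosomes separate, MKI67 encodes the Ki-67 protein that coats mitotic chromosomes, and CDK1 is the kinase of mitotic entry. In MKI67 the last CHR and CCAAT matches share letters.
TOP2A: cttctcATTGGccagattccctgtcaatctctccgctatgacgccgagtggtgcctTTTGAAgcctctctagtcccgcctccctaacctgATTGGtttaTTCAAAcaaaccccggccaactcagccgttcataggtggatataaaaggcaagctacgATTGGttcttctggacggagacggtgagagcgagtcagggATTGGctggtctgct
MKI67: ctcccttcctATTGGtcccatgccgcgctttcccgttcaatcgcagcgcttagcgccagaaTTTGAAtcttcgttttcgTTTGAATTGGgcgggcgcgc
CDK1: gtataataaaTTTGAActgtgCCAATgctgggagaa

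The summed level of the mitosis members was lower at each later time point, and that of the replication members was lower at day 90 and day 200 by a smaller amount. Reads of each chip were pooled and scaled to its total reads. The 30 mitosis members together were at 2722 CPM at day 60, with an exact 95% Poisson interval of 2712 to 2732, and at 959.9 CPM (954.3 to 965.6) at day 90. Chip a had 653.7 CPM (648.7 to 658.9) and chip b had 221.2 CPM (218.1 to 224.3). The 29 replication members were at 1342 CPM (1335 to 1349), 736.9 CPM (732.0 to 741.9), 830.2 CPM (824.5 to 836.0) and 727.8 CPM (722.2 to 733.4) in the same order. These intervals cover counting error only, since the reads carried no molecular identifiers and may be PCR copies.

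The mitosis members were thus 2.84-fold lower at day 90 than at day 60, and 4.16-fold and 12.3-fold lower on chips a and b. The replication members were 1.82-fold lower at day 90, and 1.62-fold and 1.84-fold lower on chips a and b. The chips of day 200 differed from each other by 2.96-fold in the mitosis members and by 1.14-fold in the replication members. The ratio of mitosis to replication CPM was 2.03, 1.30, 0.787 and 0.304 in the same order. In pooled reads, fewer dividing cells and less RNA per dividing cell cannot be told apart.

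Columns of one chip share a cell suspension, so they show spread within a chip and are not separate cultures. For the mitosis members the lowest, median and highest columns were at 592.1, 2270 and 7066 CPM at day 60, and at 76.9, 531.9 and 4694 CPM at day 90. They were at 29.2, 144.1 and 5925 CPM on chip a and at 60.3, 140.1 and 1225 CPM on chip b. The groups overlapped, and the medians of the 2 day 200 chips were much closer than their pooled levels. For the replication members the columns were at 802.7, 1309 and 2364 CPM at day 60 and at 575.2, 707.6 and 1144 CPM at day 90. They were at 247.0, 659.1 and 1656 CPM on chip a and at 463.3, 647.7 and 1413 CPM on chip b.

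**Figure D2:**
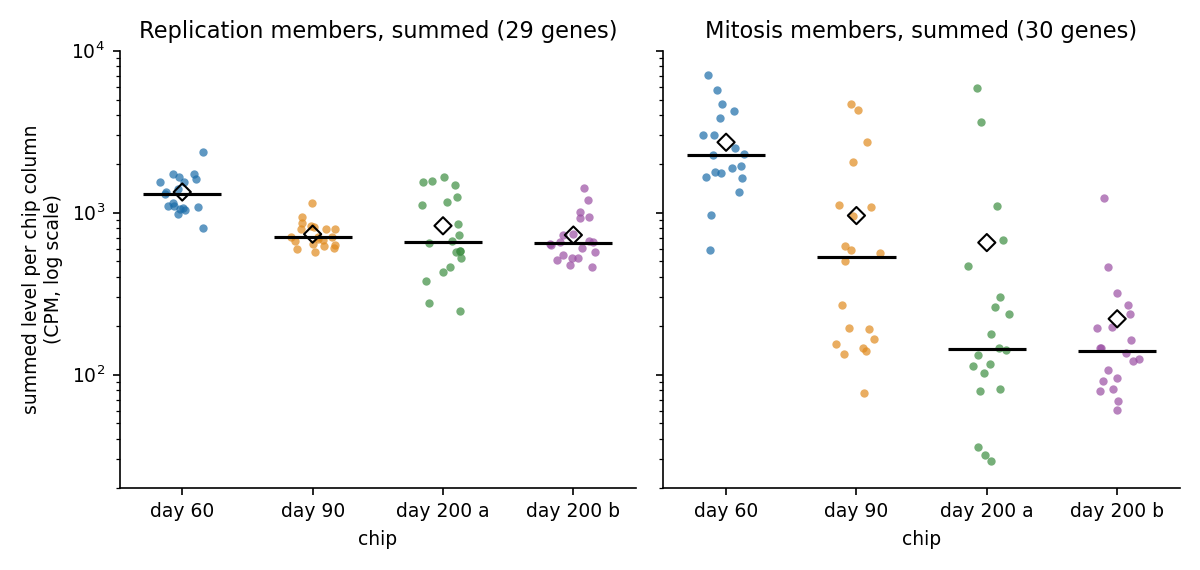
Summed level (y axis, CPM, log scale) of the replication members (left) and the mitosis members (right) in each column of the 4 chips. Points are columns, bars are their medians and diamonds are the pooled chip level. The mitosis medians were 2270 CPM at day 60 and 140.1 to 144.1 CPM at day 200, with the highest chip a column at 5925 CPM.

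A member was counted as lower when it was at least 2-fold lower after adding 1 CPM, among 12365 genes with a mean of at least 5 CPM. At day 90, 24 of 29 mitosis members (median log2 change -1.58) and 12 of 27 replication members (median -0.97) were lower than at day 60, against 6.88% of all genes. No member of either list was higher, against 10.5% of all genes. At day 200, where both chips had to pass, 28 of 29 mitosis members (median -2.88) and 10 of 27 replication members (median -0.87) were lower, against 3.23% of all genes. No member was higher on both chips, against 7.7% of all genes. The median change of all 12365 genes was 0.02 at day 90 and 0.07 at day 200. Both comparisons use the same day 60 chip and are not independent. Medians were also taken without the offset of 1 CPM, with members of 0 reads set to a floor of 3 reads per chip. The day 200 medians were then -3.08 for the mitosis members and -0.96 for the replication members. The floor covers counting error only, and the parts of the floor and of the missing offset in these values were not separated.

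**Figure D3:**
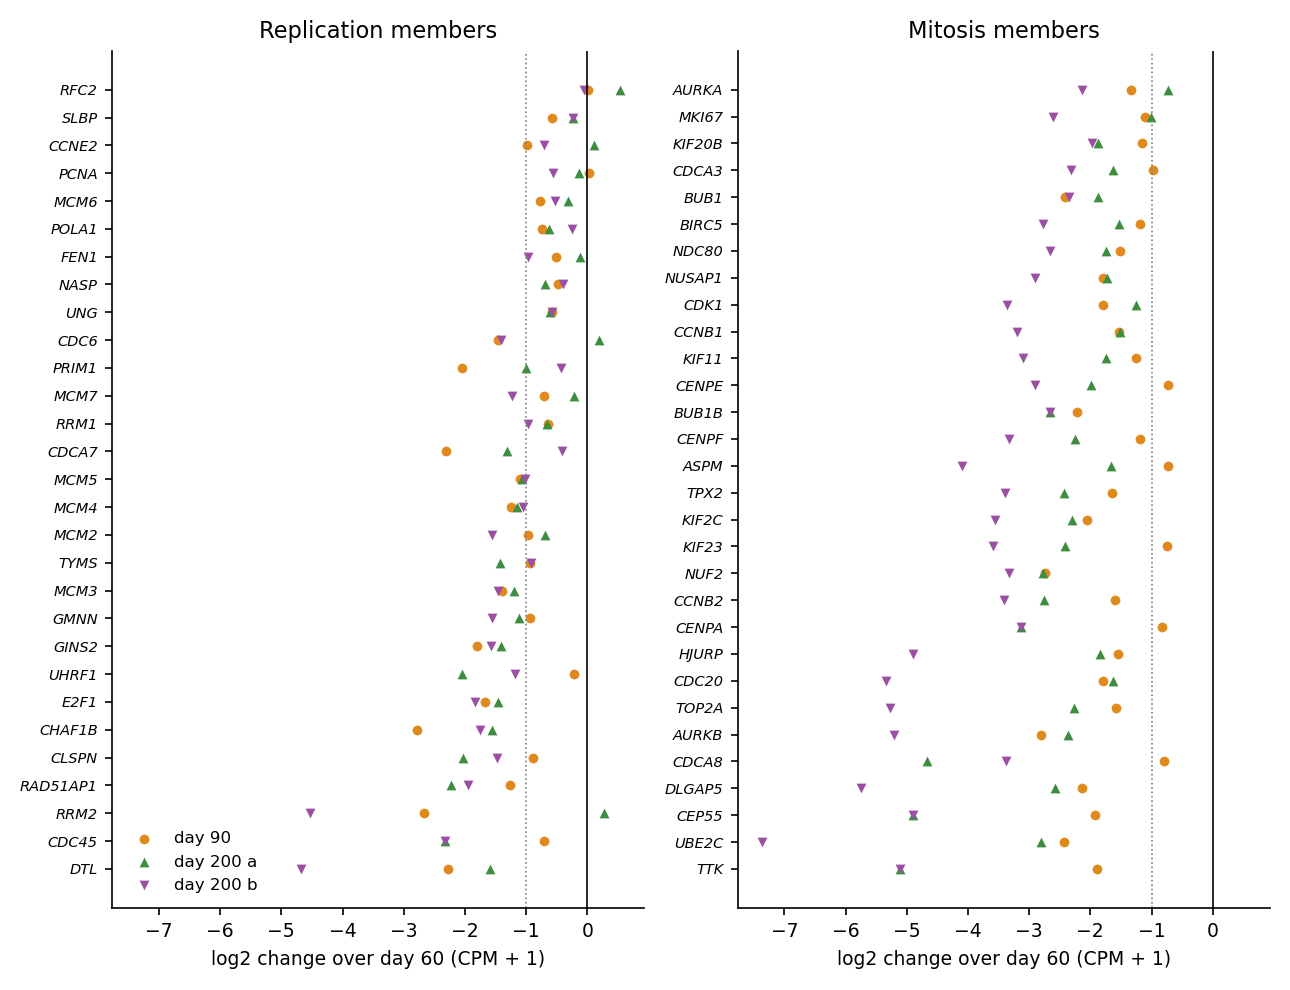
Change of each member over day 60 (x axis, log2 of CPM + 1) at day 90 and on the 2 day 200 chips, ordered by the mean day 200 change, with the dotted line at 2-fold lower. On the right, AURKA was the 1 tested mitosis member that did not pass on both day 200 chips, and on the left RFC2, SLBP and CCNE2 lay closest to 0.

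Chip b was at least 2-fold below chip a in 17 of 29 mitosis members and 4 of 27 replication members (MCM7, CDC6, DTL and RRM2), against 5.25% of all genes. CDCA8, a subunit of the chromosomal passenger complex, was the 1 member higher on chip b, at 1.45 CPM against 0 reads on chip a, and 7.62% of all genes were higher there. Cell type markers also differed between these chips. On chip b, 7 of 10 cone and 6 of 10 rod markers were at least 2-fold lower, and 9 of 10 extracellular matrix markers and 9 of 10 markers of the study's cluster 8 were higher. The part of these markers in the members' difference was not tested.

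Among the MCM helicase subunits, 3 of 6 were lower at day 90 and on both day 200 chips, against 6.88% and 3.23% of all genes. These were MCM3, MCM4 and MCM5 each time. The same shares of all genes apply to each group of members below, and counts in groups this small are descriptions only. Where 4 values are given for a gene, they follow the order day 60, day 90, chip a, chip b. MCM3 was at 86.9 CPM at day 60, 32.4 at day 90, and 37.4 and 30.97 CPM on chips a and b. Its columns ran from 13.5 to 204 CPM at day 60 (median 82.3) and from 3.43 to 64.96 CPM at day 90 (median 29.7), so they overlapped. MCM4 was at 55.8, 22.98, 24.7 and 26.4 CPM and MCM5 at 17.6, 7.65, 7.87 and 8.23 CPM on the 4 chips in order of time. MCM7, the subunit of highest level, was at 113, 68.9, 96.6 and 47.7 CPM. MCM6 was at 43.97, 25.3, 34.97 and 30.3 CPM, and MCM2 at 22.6, 11.1, 13.7 and 7.05 CPM. The log2 changes of the 6 subunits at day 90 ran from -1.40 to -0.70, and those of MCM2, MCM6 and MCM7 did not pass.

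Of the genes that license and fire origins or limit licensing, 3 of 4 tested were lower at day 90 (CDC6, GINS2 and DTL), against 6.88% of all genes. On both day 200 chips 3 were lower (GINS2, GMNN and DTL), against 3.23% of all genes. GINS2, part of the active helicase, was at 61.3 CPM at day 60, 16.8 at day 90, and 22.4 and 19.8 CPM at day 200. DTL, which targets the licensing factor CDT1 for destruction, was at 24.6, 4.27, 7.53 and 0 CPM. DTL had no read in the 381 cells of chip b. CDC6, the helicase loader, was at 21.1, 7.03, 24.4 and 7.29 CPM, and in 15 of 20 columns of chip a it had no read. Geminin (GMNN), an inhibitor of licensing, was at 51.6, 26.5, 23.3 and 16.9 CPM.

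Of the 5 genes of the replication fork, PRIM1 was lower at day 90 and none was lower on both day 200 chips, against 6.88% and 3.23% of all genes. PCNA was at 52.7, 53.9, 48.0 and 35.3 CPM, and its column medians were 52.4, 51.9, 30.9 and 27.99 CPM. RFC2, a subunit of the loader that places PCNA on DNA, was at 21.3, 21.5, 31.4 and 20.6 CPM. POLA1 was at 105, 62.4, 67.9 and 88.5 CPM and FEN1, which trims Okazaki fragments, at 38.6, 26.7, 35.6 and 19.3 CPM. PRIM1, the catalytic primase subunit, was at 37.7, 8.35, 18.4 and 27.8 CPM.

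The subunits of ribonucleotide reductase, which makes deoxynucleotides, differed from each other. RRM1 was at 94.6, 60.1, 59.5 and 47.9 CPM and had a read in every column except 1 of chip a, while RRM2 was at 22.3, 2.64, 26.96 and 0 CPM. RRM2 had no read in 1, 12, 14 and 20 columns of the 4 chips. Thymidylate synthase (TYMS) was at 52.5, 26.8, 18.9 and 27.4 CPM. The antisense row TYMSOS overlaps TYMS and held 5766 reads against 12879 of TYMS, and since the counting does not name strand their reads cannot be told apart.

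Of the genes of histone supply and chromatin, CHAF1B was lower at day 90 and on both day 200 chips, and CDCA7 was lower at day 90. NASP, a histone chaperone, had the highest level in the list, with 204 CPM at day 60, 146 at day 90, and 126 and 155 CPM at day 200. SLBP, which binds histone mRNA, was at 52.4, 34.9, 44.3 and 44.4 CPM. CHAF1B, of the chromatin assembly factor, was at 14.4, 1.25, 4.23 and 3.58 CPM. Among genes of S phase entry, checkpoint and repair, the transcription factor E2F1 was at 13.4, 3.4995, 4.22 and 3.04 CPM. The checkpoint mediator CLSPN was at 38.97, 20.7, 8.80 and 13.3 CPM and the recombination gene RAD51AP1 at 30.4, 12.1, 5.72 and 7.12 CPM. The cyclin CCNE2 was at 9.24, 4.17, 10.0 and 5.28 CPM.

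Per length, NASP and GMNN led the replication members at day 60, with 55.7 and 40.9 reads per kilobase of the longest annotated transcript, on the CPM scale (RPKM), followed by PCNA with 38.8 RPKM. At day 90 PCNA (39.6 RPKM) and NASP (39.8 RPKM) were level. Among the mitosis members, UBE2C was highest per length at day 60 (179 RPKM), ahead of TOP2A (84.5 RPKM) and TPX2 (78.7 RPKM), although TOP2A was highest in CPM.

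TOP2A was at 481, 160, 99.6 and 11.5 CPM. Its lowest, median and highest columns were at 89.0, 447 and 1232 CPM at day 60, and its median columns were at 33.7, 0.133 and 0.535 CPM on the later chips. MKI67 was at 177, 81.9, 87.3 and 28.1 CPM. Its median column was at 185, 17.0, 0 and 1.11 CPM. On chip a, 13 of 20 columns had no MKI67 read and the highest had 815 CPM. MKI67 was among the 3 mitosis members with the smallest difference between day 60 and day 200 in pooled reads, with AURKA and KIF20B.

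Of the genes of CDK1, the B cyclins and their removal, 5 of 6 were lower at day 90 and 6 of 6 on both day 200 chips. Of all genes, 6.88% and 3.23% were lower. CDK1 was at 65.04, 18.1, 26.6 and 5.40 CPM, CCNB1 at 102, 34.8, 35.2 and 10.2 CPM and CCNB2 at 64.9, 20.7, 8.71 and 5.21 CPM. UBE2C, the ubiquitin-conjugating enzyme that acts with the anaphase-promoting complex, was at 164, 29.6, 22.5 and 0 CPM. CDC20, which activates that complex, was at 39.3, 10.6, 11.9 and 0 CPM. CDCA3, which takes part in mitotic entry, was at 21.1, 10.2, 6.11 and 3.42 CPM. UBE2C had 1510 reads in the 8 mitosis-positive cells of chip a, 37.5% of which had a read of it at 50000 reads.

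Aurora kinase A (AURKA), which acts at spindle poles, was at 33.2, 12.5, 19.5 and 6.82 CPM, and 16 of 20 columns of chip a had no read of it. Aurora kinase B (AURKB), of the chromosomal passenger complex, was at 35.96, 4.29, 6.15 and 0 CPM, and survivin (BIRC5), of the same complex, at 71.1, 30.5, 23.996 and 9.58 CPM. The spindle checkpoint genes BUB1, BUB1B and TTK were lower at day 90 and on both day 200 chips. BUB1 was at 33.9, 5.54, 8.52 and 5.85 CPM. TTK was at 33.5 and 8.29 CPM at day 60 and day 90 and had no read in 737 cells of day 200.

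CENPF, a large kinetochore protein, was at 369, 162, 76.9 and 35.7 CPM, and the centromere motor CENPE at 70.7, 42.3, 17.0 and 8.53 CPM. CENPA, the histone of the centromere, was under the minimum with 7.76 and 3.91 CPM and no read at day 200. Of the kinesins, 3 of 4 were lower at day 90 and 4 of 4 on both day 200 chips, against 6.88% and 3.23% of all genes. KIF20B, which acts in cell division, was at 81.3, 36.1, 21.6 and 19.9 CPM. KIF11, the spindle motor, was at 34.99, 14.2, 9.75 and 3.18 CPM.

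The spindle genes TPX2 and NUSAP1 were at 284, 90.0, 51.5 and 26.02 CPM and at 188, 53.5, 56.2 and 24.2 CPM. ASPM, which acts at spindle poles and is known for its part in brain size, was at 75.0, 44.7, 22.97 and 3.42 CPM. CEP55, of the midbody that links daughter cells, was at 28.7 and 6.79 CPM at day 60 and day 90 and had no read at day 200. All 8 mitosis members without a read on chip b (CDC20, UBE2C, AURKB, TTK, CENPA, HJURP, DLGAP5 and CEP55) had at least 7.76 CPM at day 60, and on chip a there were 4 without a read (CDCA8, TTK, CENPA and CEP55).

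Mitosis reads came from few cells, while replication reads were spread. Ranking cells by level, 50% of the mitosis CPM summed over cells was held by 20 of 578, 8 of 661, 2 of 356 and 13 of 381 cells, in the order of the chips. For the replication members the numbers were 83, 110, 40 and 69 cells. The top 10 cells held 35.5%, 58.9%, 74.6% and 47.01% of the mitosis CPM, and 10.6%, 14.8%, 25.4% and 20.0% of the replication CPM.

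The highest mitosis cell of day 60 had 75514 CPM of the 30 genes together and, at 50000 reads, reads of 29 of them. On chip a, the highest 2 cells had 45660 and 32157 CPM, at 575718 and 415120 reads, and lay in columns 11 and 8. They held 62.7% of the chip's mitosis reads, and without them chip a was at 246.1 CPM in place of 653.7. Without the highest 5 cells of each chip, the levels were 1964, 557.1, 154.6 and 127.3 CPM, and chips a and b then lay close together. The same step changed the replication levels to 1295, 688.3, 662.9 and 630.8 CPM. With it, 29 of 29 tested mitosis members were lower on both day 200 chips. The cells left out were chosen by the same list that was then read out. For mitosis they held 28.8%, 42.5%, 76.9% and 43.3% of the reads, in the order of the chips. The lower levels and the closeness of chips a and b are thus in part built into this step.

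**Figure D4:**
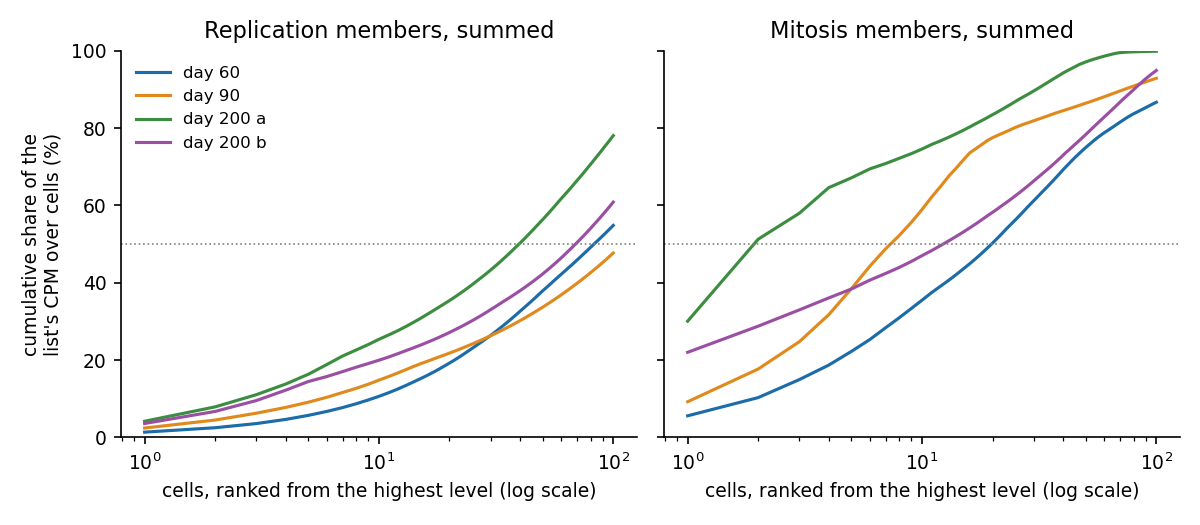
Cumulative share (y axis, percent) of each list's CPM over cells ranked from the highest (x axis, log scale), by chip, with the dotted line at 50%. Mitosis curves (right) crossed 50% at 2 to 20 cells and replication curves (left) at 40 cells or later.

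To count cells at equal depth, each cell was thinned to 50000 reads, which left out 6 day 90 cells. A cell was called positive for a list when reads of at least 5 of its genes remained. Mitosis-positive cells were 165 of 578 at day 60 (28.5%, exact binomial 95% interval 24.9 to 32.4%), 48 of 655 at day 90 (7.33%, 5.45 to 9.60%). On chips a and b they were 8 of 356 (2.25%, 0.97505 to 4.38%) and 5 of 381 (1.31%, 0.427 to 3.04%). Replication-positive cells were 280 of 578 (48.4%, 44.3 to 52.6%), 128 of 655 (19.5%, 16.6 to 22.8%), 12 of 356 (3.37%, 1.75 to 5.81%) and 50 of 381 (13.1%, 9.90 to 16.9%). The share on chip a was below that on chip b while its replication CPM was higher, and fewer genes were detected per cell on chip a, so no order is read from these shares at day 200.

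These calls cut a continuous range. At day 60, 88 cells had 4 replication genes and 65 had 5, and 45 had 4 mitosis genes and 40 had 5. At day 90 the numbers were 96 and 57 for replication, and 9 and 5 for mitosis. Every column of day 60 held a mitosis-positive cell, with 5.56% to 63.3% of its cells positive, while 3 columns of day 90, 16 of chip a and 15 of chip b held none.

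Of the mitosis-positive cells, 120 of 165 at day 60 were also replication-positive (72.7%, 65.3 to 79.4%), as were 27 of 48 at day 90 (56.3%, 41.2 to 70.5%). At day 200 there were 4 of 8 and 2 of 5 such cells. Conversely, 120 of 280 replication-positive cells were mitosis-positive at day 60 (42.9%, 37.0 to 48.9%) and 27 of 128 at day 90 (21.1%, 14.4 to 29.2%). The share of replication-positive cells was higher in cells with more mitosis genes. At day 60 it was 24 of 79 cells with no mitosis gene (30.4%), 136 of 334 with 1 to 4 (40.7%), 72 of 111 with 5 to 14 (64.9%) and 48 of 54 with 15 or more (88.9%). At day 90 it was 13.5%, 19.3%, 50% and 66.7% in the same classes. Median depth before thinning was 149257 reads in the lowest and 203883 reads in the highest day 60 class, and its part in the order was not tested.

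**Figure D5:**
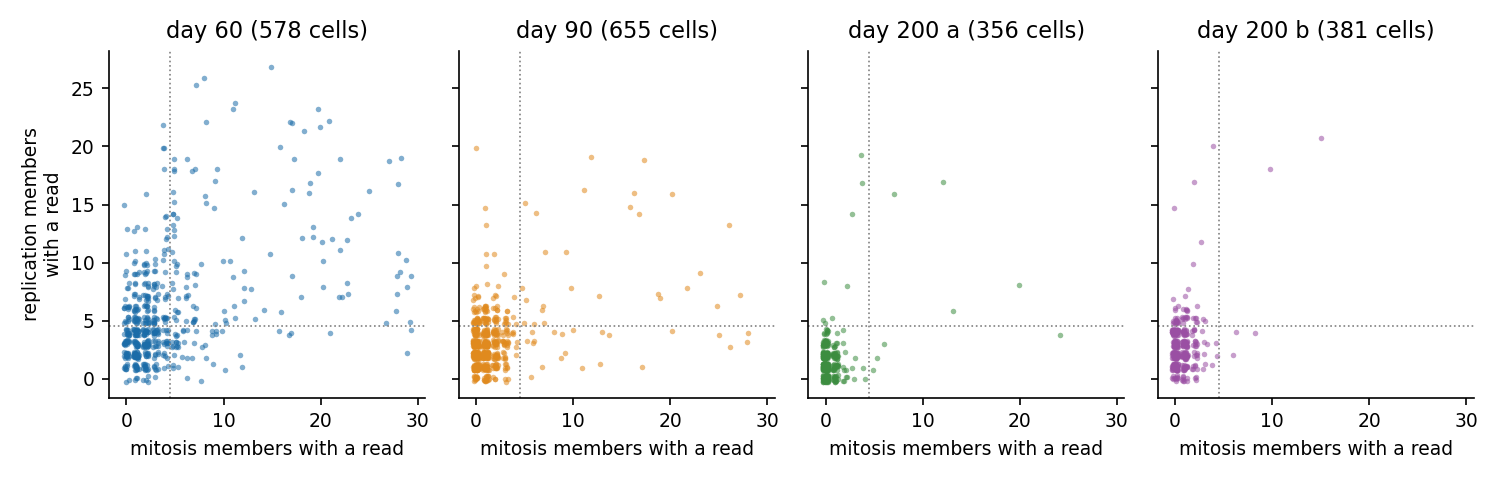
Number of replication members (y axis) and of mitosis members (x axis) with a read in each cell at 50000 reads, by chip, with points shifted slightly at random and dotted lines at the limit of 5 genes. Day 60 held 120 cells above both lines, and the 2 day 200 chips held 4 and 2.

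Classing cells by the mitosis genes gives a view of the replication members that does not use their own reads. Of the 27 tested replication members, 27 were higher in the 165 mitosis-positive cells of day 60 than in the other 413, against 46% of all genes, and 19 were at least 2-fold higher, against 4.85% (median log2 difference 1.335, and -0.04 over all genes). Summed, the 29 members were at 2358 CPM against 896.3 CPM. At day 90, 25 of 27 were higher in the 48 mitosis-positive cells, against 41.9% of all genes, and 20 were at least 2-fold higher, against 8.03% (median 1.47, and -0.15 over all genes). The sums were 1987 CPM against 638.9 CPM. PRIM1 and CHAF1B were at least 2-fold lower there, against 19.3% of all genes, and had 17 and 0 reads in the mitosis-positive cells. The median depth of the compared cells was 178526 against 160007 reads at day 60 and 163374 against 160647 at day 90.

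The size of this difference set some replication members apart. RRM2 was at 68.5 CPM in mitosis-positive and 1.99 CPM in other cells of day 60, and had 305 reads in mitosis-positive cells and 1 read in the other 607 cells of day 90. CDC6 was at 59.8 against 4.15 CPM at day 60 and at 68.5 against 2.19 CPM at day 90. DTL was at 63.5 against 7.48 CPM and at 41.9 against 1.31 CPM, and RAD51AP1 at 73.3 against 11.6 CPM and at 119 against 3.65 CPM. CLSPN was at 93.9 against 14.9 CPM and at 171 against 8.79 CPM. In contrast NASP was at 274 against 173 CPM at day 60 and at 277 against 135 CPM at day 90, and SLBP at 70.7 against 44.4 CPM and at 51.6 against 33.6 CPM. UNG, which removes uracil from DNA, was at 45.4 against 30.0 CPM and at 39.2 against 21.5 CPM.

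Classed the other way, all 29 tested mitosis members were higher in replication-positive than in other cells on both chips, against 50.1% of all genes each time. At least 2-fold higher were 29 at day 60, against 5.23% of all genes, and 21 at day 90, against 4.63%. Median depth was 182495 against 149596 reads at day 60 and 195677 against 156307 at day 90, and its part was not tested. At 50000 reads, mitosis-positive cells of day 60 had a median of 3322 genes detected. Cells positive for replication only had 3383 and cells positive for neither list 2809. At day 90 the medians were 3149, 3435 and 2752, and their part in the overlap of the calls was not tested. Summed, the mitosis members were at 4319 against 933.1 CPM at day 60 and at 2274 against 564.3 CPM at day 90. HJURP, the chaperone of CENPA, was at 51.3 against 3.66 CPM and at 29.1 against 3.28 CPM.

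Within the mitosis-positive cells, 14 of 29 tested mitosis members were at least 2-fold higher at day 60 in the 120 cells that were also replication-positive than in the other 45, against 17.8% of all genes, and none was 2-fold lower, against 13.4%. At day 90, with 27 against 21 cells, 9 of 29 were at least 2-fold higher, against 25.8% of all genes, and TTK and NUF2 were 2-fold lower, against 22.7%, so the day 90 count of higher members was near the background. At least 2-fold higher on both chips were BIRC5, HJURP, KIF11, ASPM and TOP2A. The share of all genes higher on both chips was not counted, so this overlap is a description only. The part of depth in these differences was not tested. BIRC5 was at 252 against 125 CPM at day 60 and at 592 against 163 CPM at day 90. TTK was at 127 against 27.2 CPM at day 60 and at 62.7 against 158 CPM at day 90, so its difference turned. CENPA, under the minimum, was at 16.8 against 38.9 CPM at day 90. The median log2 difference was 0.96 at day 60 and -0.07 at day 90.

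Over the 1976 cells, with the mean of each chip subtracted, mitosis members varied together more than replication members did. The median Pearson correlation of log2(CPM + 1) was 0.416 over the 435 pairs of mitosis members, 0.143 over the 406 pairs of replication members and 0.099 over the 870 pairs across lists. Cells share libraries and depth, and in counts with many zeros such values are descriptions only. The highest pairs were MKI67 with TOP2A (0.650) in mitosis and CDC6 with DTL (0.399) in replication. Across lists the 5 highest pairs all held RRM2, and were led by RRM2 with HJURP (0.455) and with MKI67 (0.454).

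With the sum of the other members of its own list, TOP2A (0.439), MKI67 (0.417) and TPX2 (0.388) correlated most among mitosis members, and AURKA (0.190), CENPA (0.203) and BUB1 (0.211) least. Among replication members the values ran from 0.065 for POLA1, 0.072 for NASP and 0.081 for CHAF1B to 0.196 for CLSPN and CDC6 and 0.199 for RRM2 and E2F1. When the mitosis-positive cells were left out, the median within mitosis members was 0.006 and within replication members 0.075. Those cells were called by reads of the mitosis members themselves, so the low mitosis value is built into this step. On chip b the mitosis median was 0.067, against 0.366 to 0.462 on the other 3 chips.

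Outside all lists, the genes of at least 20 CPM that correlated most with the mitosis sum were KNL1 (0.329), CENPU (0.266) and FANCI (0.229), among 7807 genes. KNL1 and CENPU act at the kinetochore. KNL1 was at 51.2, 18.6, 16.2 and 2.33 CPM. No gene outside the lists exceeded 0.198 with the replication sum.

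Further genes of both processes were counted in the same way. Of all genes, 6.88% were lower and 10.5% higher at day 90, and 3.23% were lower and 7.7% higher on both day 200 chips. Of 38 further replication genes, 30 passed the minimum. Of these, 11 were lower at day 90 and 10 on both day 200 chips, and none was at least 2-fold higher. RPA1, of the single-strand binding complex, was at 55.7, 69.3, 68.3 and 51.02 CPM. DNMT1, which copies DNA methylation, was at 160, 87.8, 111 and 110 CPM, DUT, which removes dUTP, at 114, 97.6, 72.3 and 119 CPM, and TOPBP1, of the checkpoint, at 123, 62.5, 103 and 106 CPM. Of 50 further mitosis genes, 37 passed. Against the same shares of all genes, 24 were lower at day 90 and 19 on both day 200 chips, and none was at least 2-fold higher. CKS2, a CDK partner, was at 385, 139, 90.4 and 105 CPM, the checkpoint gene BUB3 at 236, 107, 196 and 106 CPM and HMGB2, a chromatin protein, at 327, 145, 94.8 and 72.4 CPM.

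Of 4 tested CDK inhibitor genes, too few to set against the 3.23% of all genes lower and the 7.7% higher on both day 200 chips, none was lower and CDKN2C was higher, at 10.5 CPM at day 60, 18.2 at day 90, and 24.01 and 22.9 CPM at day 200. CDKN1A was at 141, 172, 207 and 195 CPM, CDKN1B at 75.2, 75.6, 94.3 and 98.0 CPM and CDKN2D at 42.4, 33.8, 38.8 and 20.8 CPM. Of 4 tested D cyclins and their kinases, CCND1 was lower at both later times (318, 98.0, 106 and 136 CPM), while CCND2 was at 263, 268, 303 and 352 CPM and CDK6 at 23.7, 45.1, 27.4 and 32.8 CPM. Of 5 tested replication-dependent histone genes, 1 was lower at each later time: HIST1H4C at day 90 (1193, 259, 713 and 426 CPM) and HIST1H1E at day 200 (114, 99.05, 44.4 and 53.99 CPM). HIST1H1C was at 113, 183, 138 and 81.0 CPM. These mRNAs mostly lack a poly(A) tail.

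Cell type markers moved with time as well. Apart from the progenitor genes these lists came from the study's own clusters of these cells, so their directions are not independent evidence. Of all genes, 10.5% were higher and 6.88% lower at day 90. On both day 200 chips 7.7% were higher and 3.23% lower. Counts of 1 or 2 of 10 are too few to set against these shares. Of 10 retinal ganglion cell (RGC) markers 6 were lower at day 90 and 7 on both day 200 chips, and STMN2 had the highest level at day 60 (671, 217, 109 and 184 CPM). Of 10 cone markers 10 were higher at day 90 and 9 on both day 200 chips, and of 10 rod markers 9 and 7. Higher Müller glia markers numbered 4 and 6, RPE markers 10 and 8, extracellular matrix (ECM) markers 7 and 3, and markers of the study's cluster 7 numbered 5 and 3. A Müller glia marker was lower at day 90 (1 of 10), as was 1 ECM marker at day 90 and at day 200. For cluster 8 there was 1 higher at day 90 and 0 at day 200, and 2 were lower each time. Of 10 progenitor genes 2 were lower at day 90 and 1 at day 200, and none was higher. The part of cell type mix in the members' levels was not tested.

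Cells with reads of at least 5 of the 10 progenitor genes (among them RAX, SIX3, PAX6 and SOX2) held most of the mitosis-positive cells at day 60, day 90 and on chip b, but 3 of 8 on chip a. They were 132 of 165 at day 60, when 63.3% of all cells carried that list, 40 of 48 at day 90 (61.2% of all cells), 3 of 8 on chip a (41.6% of all cells) and all 5 on chip b (57.7%). Of the progenitor-list cells, 36.1% were mitosis-positive at day 60 (31.1 to 41.2%) and 9.98% at day 90 (7.22 to 13.3%). The Müller glia list, which shares HES1 and SFRP2 with it, was carried by 131 of 165 and 44 of 48 mitosis-positive cells and by all 13 at day 200, and by 69.4% to 77.95% of all cells.

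Cells carrying neuronal lists gave a comparison. Mitosis-positive cells were 58 of 236 RGC-list cells at day 60 (24.6%, 19.2 to 30.6%) and 8 of 69 at day 90 (11.6%, 5.14 to 21.6%), and 0 of 28 at day 200 (exact upper limit 12.3%). They were 13 of 266 cone-list cells at day 90 (4.89%, 2.63 to 8.21%) and 3 of 191 at day 200 (1.57%, 0.325 to 4.52%). Few day 60 cells carried photoreceptor lists. Positive were 11 of 36 with the cone list (30.6%, 16.3 to 48.1%). With the rod list 8 of 23 were positive (34.8%, 16.4 to 57.3%). Later rod-list shares were 3.37% (day 90, 1.25 to 7.19%) and 2.08% (day 200, 0.432 to 5.97%). The shares of all cells were 28.5%, 7.33% and 1.76% by time point. These intervals cover counting error only, since cells of a chip are not replicates. The cells of each list are also part of the cells they are set against. Only the day 90 rod interval left out the share of its time point, with an upper limit of 7.19% against 7.33%. No depletion is read from these lists. Over all chips, cone-list cells (median depth 201392 reads) had an MKI67 read at 50000 reads in 7.71% of cells, a NASP read in 43.002% and a PCNA read in 20.5%. Progenitor-list cells had a median depth of 187992 reads. Reads of NASP or PCNA in a cell were thus common also in cells carrying photoreceptor genes, and single reads of them are not taken as cycling.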

How the data were processed

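Single cells of retinal organoids were sequenced on Fluidigm C1 HT chips after SMART-Seq v4 and Nextera XT preparation. The authors trimmed reads with Trimmomatic 0.33, aligned them with STAR 2.4.0, used HTSeq 0.6 for counting and deposited raw read counts per cell. The strand setting was not given in the sources used here. From these counts, 24414 gene rows in 1976 cells and 79 chip columns were used, and 1 spike row was left out. Each GEO sample is 1 chip column, and columns of a chip were pooled. CPM used all gene reads. Fold changes used an offset of 1 CPM, and genes under a mean of 5 CPM were not counted. The fold rule was tried on simulated Poisson counts of pooled chips with known folds. These had no variation between cells and no PCR copies, so they do not test calls that rest on few cells. With 1 chip per time point, or 2 at day 200, no test between times was made, and 95% intervals are exact Poisson or binomial. Both kinds of interval cover counting error only, since cells of a chip are not replicates. Named genes were the members, with the 3 of highest mean level in each further list of cell cycle genes and the nearest genes by correlation. Genes called in lists of few genes, the neuronal and progenitor cell counts and STMN2 were named after their values were seen. Members and lists were chosen with earlier results of these data known. Doublets were called with scrublet in scanpy 1.11.5 (4, 1, 22 and 7 cells by chip) and kept. Alternatives included TMM scaling in edgeR 4.0.16, other offsets, folds, depths and cell filters.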

Additional observations from a re-analysis of the deposited data

How the results depend on the processing

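No setting reversed the direction of a list. With 1 chip left out, the day 200 log2 change ran from -0.88 to -0.69 for the replication members and from -3.62 to -2.06 for the mitosis members. Without the 5 highest cells of each chip the replication change was -1.002 in place of -0.79. The count of replication members lower at day 90, 12, was 7 with an offset of 10 CPM, with or without the minimum, 21 at 1.5-fold and 7 at 3-fold. At day 200 the count of 10 was 4 with the offset of 10 CPM, with or without the minimum, and 1 at 3-fold. The 24 mitosis members lower at day 90 were 14 at 3-fold. Leaving out the 5 highest cells, a choice made after seeing the data, gave 14 and 13 replication members and 27 and 29 mitosis members at day 90 and day 200. Those cells were ranked by the list that was then counted.

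Shares of positive cells depended on the limit. Replication-positive shares at day 60, day 90, chip a and chip b were 78.2%, 55.9%, 17.4% and 51.2% with at least 3 genes and 63%, 35.6%, 8.15% and 26.8% without thinning. With at least 8 genes they were 25.1%, 4.12% and, on chip b, 2.1%, and with at least 3 reads per gene 31.7%, 7.33% and, on chip b, 4.99%. At day 60 and day 90 they were 40.3% and 12.9% at 25000 reads, and 60.0% and 23% in cells of at least 150000 reads and at most 10% mitochondrial reads. Mitosis-positive shares were 46.9%, 15.6%, 4.49% and 4.72% with at least 3 genes and 40.0%, 11.0% and, on chip a, 4.49% without thinning. At day 60 and day 90 they were 16.3% and 4.89% with at least 8 genes and 18.5% and 4.89% with at least 3 reads per gene. At day 60 they were 23.4% at 25000 reads and 33.0% in the deeper cells. The share of mitosis-positive cells that were replication-positive was 87.8% and 77.5% with at least 3 genes, 60.6% and 37.5% with at least 8, and 80.5% and 71.2% without thinning, at day 60 and day 90, and 83.8% in the deeper cells of day 60.

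Median correlations within the replication list were 0.202 at day 60, 0.088 at day 90, 0.099 on chip b and 0.075 without mitosis-positive cells. Within the mitosis list they were 0.067 on chip b and 0.006 without mitosis-positive cells, and between lists 0.131 at day 60, 0.065 on chip b and 0.009 without those cells. Leaving out mitosis-positive cells selects on reads of the mitosis members, so lower values for pairs that hold these members are built into that step. The cause of the other shifts was not tested. No paired analysis was possible because the values come from no test and column numbers mark no shared culture.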
